A study of Mus musculus with 4 samples.

Results

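Lysosomal hydrolases, lysosomal membrane proteins and autophagy factors were followed as a set of 39 genes in primary mouse vascular smooth muscle cells (VSMCs) with and without knockdown of *Mettl14*. *Mettl14* encodes a subunit of the methyltransferase complex that writes N6-methyladenosine (m6A) on mRNA, and the question was how mRNA levels respond when that subunit is depleted. The 39 genes were taken by symbol from a count table of 48587 genes, of which 29127 had a count in at least 1 library and 18916 were abundant enough to be tested. All 39 passed that filter on low counts. Of the 39, 7 encode proteases, 10 encode hydrolases of glycans and sulfated sugars, 3 encode lipid hydrolases or their activators, 5 encode lysosomal membrane proteins, 3 encode transcription factors of the MiT/TFE family, and 11 encode autophagy proteins.

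Both groups were cells grown out of the descending aorta of C57BL/6J mice aged 8 to 12 weeks, after enzymatic removal of the adventitia and scraping of the endothelium. They were cultured with serum and used between passages 5 and 7. The shCTR group received a lentivirus with a hairpin directed against a plant microRNA sequence together with GFP, and the shMettl14 group a lentivirus with a hairpin against *Mettl14*. Infection lasted 24 hours, and cells were collected 48 hours after fresh medium was added. There were 2 poly-A RNA libraries per group, marked A and B, each of bulk cells. The letters are not stated to stand for separate cultures or animals, so p-values measure the spread between these libraries only, and an effect of 1 hairpin was not separated from an effect of its target.

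The lysosome is the acidic compartment in which cells break down proteins, glycans and lipids. Its soluble hydrolases are made in the endoplasmic reticulum and sorted to the lysosome, whereas heavily glycosylated membrane proteins line and protect its limiting membrane. In autophagy, a membrane sac encloses cytoplasm and fuses with the lysosome, and lipidated ATG8 proteins on that sac bind cargo receptors. The factors TFEB, TFE3 and MITF bind short DNA elements upstream of many of these genes and are held in the cytoplasm by mTORC1 in fed cells. In VSMCs, autophagy and lysosomal lipid breakdown are known for their roles in the contractile state and in the clearance of lipid from the vessel wall.

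*Mettl14* itself had 2050 and 2154 counts in shCTR A and B and 546 and 568 counts in shMettl14 A and B, so both shMettl14 libraries were below both shCTR libraries. Library totals lay between 114343653 and 124815868 counts, and a count of 0 allows up to 3 counts, or 0.0240 to 0.0262 in CPM (counts scaled to the library total), a limit for counting error only. Smooth muscle markers were abundant, with a summed normalized level over 8 genes of 7572 and 6234 CPM in shCTR A and B and of 4854 and 5129 CPM in shMettl14 A and B. All 8 had a lower mean with shMettl14, and *Acta2* alone had an unadjusted p under 0.05 (unadjusted p = 0.038, edgeR's quasi-likelihood test). Endothelial markers were also abundant in cells labelled as VSMCs. Their summed level over 8 genes was 1919 and 1811 CPM in shCTR A and shMettl14 A and 4067 and 2522 CPM in shCTR B and shMettl14 B. *Emcn*, an endothelial sialomucin, reached 2099 CPM in shCTR B, and *Cdh5*, the cadherin of endothelial junctions, lay between 508 and 818 CPM. The summed level of 12 macrophage and leukocyte markers was 8.81 to 16.0 CPM, with *Adgre1*, *C1qa*, *C1qb*, *Tyrobp* and *Itgam* too low to be tested. That of 6 fibroblast and adventitial markers was 322 to 412 CPM, mostly from *Ly6a* (194.5 to 282.3 CPM) and *Dcn* (68.25 to 159.8 CPM). *Dpt*, *Lum* and *Pi16* reached at most 0.9685 CPM, so the sum rests on few of its genes. In bulk libraries, fewer cells of a type and less RNA per cell cannot be told apart.

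The 39 genes together took 1.10% of all counts in shCTR A, 0.840% in shCTR B, 1.01% in shMettl14 A and 0.875% in shMettl14 B. The share was thus higher in both A libraries than in either B library, whichever hairpin was used. Levels were compared between genes as normalized CPM per kilobase of exon (RPKM), on the union of each gene's GENCODE M21 exons. *Psap*, whose product is cut into the saposins that help degrade sphingolipids, had the highest level, with 538, 449, 510 and 440 RPKM in shCTR A, shCTR B, shMettl14 A and shMettl14 B. *Ctsd* (the aspartic protease cathepsin D) and *Lamp1* (a major glycoprotein of the lysosomal membrane) followed by their medians. The range of *Ctsd*, 199 to 538 RPKM, held that of *Lamp1*, 227 to 452 RPKM, and overlapped that of *Psap*. These neighbours thus did not separate beyond their spread. The lowest levels belonged to the factors *Tfeb*, at 1.03 to 2.75 RPKM, and *Mitf*, at 0.641 to 0.792 RPKM.

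**Figure D1:**
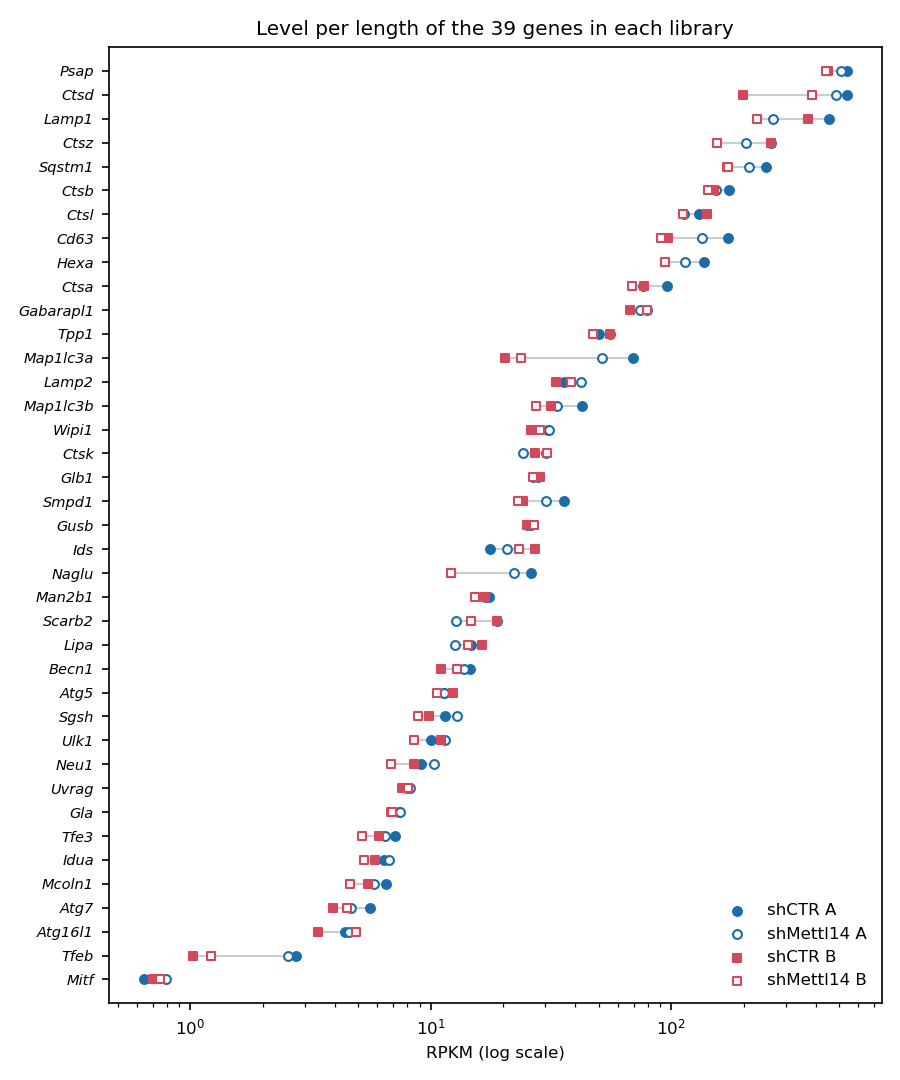
Level of each of the 39 genes in RPKM (log scale) in each of the 4 libraries, ordered by the median. Filled symbols are shCTR, open symbols shMettl14, circles letter A and squares letter B, and the line joins the lowest and highest library. *Psap* sits highest at 440 to 538 RPKM and *Mitf* lowest at 0.641 to 0.792, while *Ctsd*, *Map1lc3a*, *Naglu* and *Tfeb* have wide lines.

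In shMettl14 against shCTR, 0 of the 39 genes had an adjusted p under 0.05 in edgeR's quasi-likelihood test (Benjamini-Hochberg over 18916 genes), as was so for 0% of all genes tested. *Mettl14* itself, at a log2 fold change of −2.08 (SE 0.25, unadjusted p = 0.00039), was not called in this test either. Its adjusted p was 0.00393 with the letters as a replicate block (edgeR) and 2.02e-09 by DESeq2's Wald test. A count of 0 with 2 libraries per group thus does not show that levels were equal. By the unadjusted p of edgeR's test without a block, 1 of the 39 genes (*Lamp1*) was lower and 0 were higher below 0.05, beside 1.01% and 0.656% of all genes. DESeq2's Wald test also gave an adjusted p under 0.05 for 0 of the 39 genes and an unadjusted p under 0.05 for 1, beside 2.05% of all genes tested. The log2 fold change was below 0 for 28 genes (71.8%, beside 48.8% of all genes tested) and above 0 for 11. Its median was −0.08, where the median over all genes tested was 0.01. In edgeR's fit without a block, the log2 fold change was smaller in absolute size than its standard error for 30 of the 39 genes. The same was so for 13865 of the 18916 genes tested.

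Within the letters, 17 genes (43.6%) were lower with shMettl14 in both A and B, beside 27.7% of all genes tested, and 6 (15.4%) were higher in both, beside 30% of all. The other 16 had opposite signs in A and B. Both shMettl14 libraries were below both shCTR libraries for 8 genes (20.5%, beside 13.3% of all genes tested): *Ctsa*, *Ctsl*, *Ctsz*, *Glb1*, *Lipa*, *Lamp1*, *Scarb2* and *Atg5*. They were above both shCTR libraries for 4 genes (10.3%, beside 14.7%): *Lamp2*, *Mitf*, *Uvrag* and *Atg16l1*. These directions depend on the scaling. With library totals alone in place of the trimmed mean of M values (TMM), the median over all genes tested moved by over 0.1, to 0.12, and that of the 39 genes to 0.03. With that scaling, 16 genes were below 0 (41%, beside 35.3% of all genes tested) and 23 above. Within both letters, 9 were then lower and 11 higher, beside 18.3% and 41.7% of all genes tested. The groups did not overlap for 4 genes on the lower side (*Ctsl*, *Ctsz*, *Lamp1* and *Scarb2*, beside 8.22% of all genes tested) and for 6 on the higher side (beside 21.5%). Under each of the 4 scalings tried, 28 of the 39 genes lay below the median of all genes tested. A change of scaling shifts every gene by nearly the same amount, so this count could hardly move and is no separate support.

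**Figure D2:**
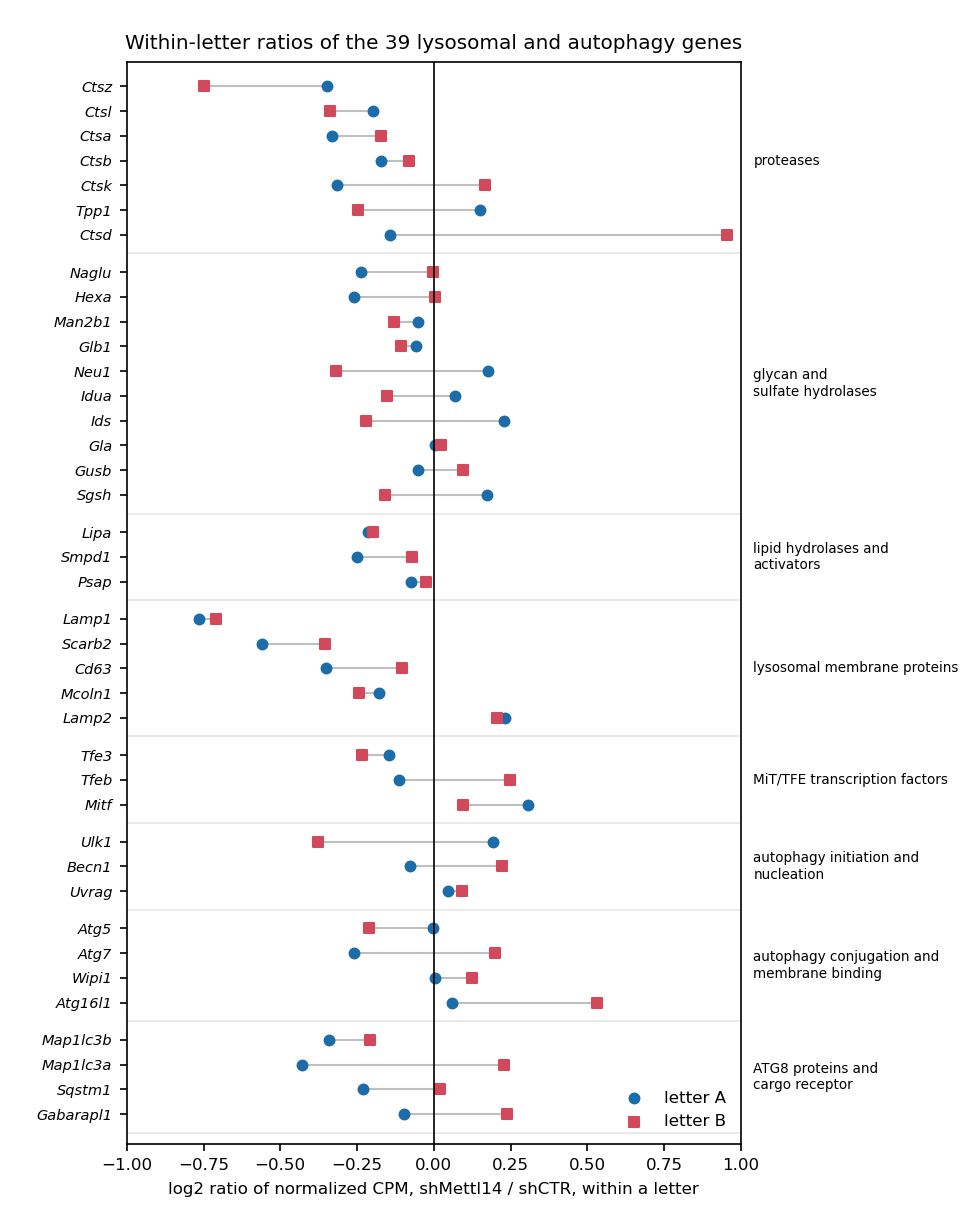
Within-letter log2 ratio of normalized CPM, shMettl14 to shCTR, for each of the 39 genes, grouped by role. Circles are letter A, squares letter B, and a line joins both. *Lamp1* lies at −0.76 and −0.71, *Lamp2* at 0.23 and 0.20, and *Ctsd* spans −0.14 to 0.95.

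The MiT/TFE factors, which bind the promoters of many of the other genes, showed no common direction. Their 3 log2 fold changes were smaller than their standard errors in the fit without a block. With the letters as a block, that of *Tfe3* was −0.19 (SE 0.15), larger than its error, and those of *Tfeb* and *Mitf* stayed smaller than theirs. *Tfeb* had 1772 and 630 counts in shCTR A and B and 1713 and 902 in shMettl14 A and B. The B libraries held fewer counts than the A libraries with either hairpin, and the log2 fold change between hairpins was −0.01 (SE 0.60). *Tfe3* had 7502 and 6101 counts in shCTR A and B and 7085 and 6246 in shMettl14 A and B, with groups that overlapped and a log2 fold change of −0.19 (SE 0.22). *Mitf*, the member best known from pigment cells and osteoclasts, had 451 and 471 counts in shCTR and 583 and 606 in shMettl14. Both shMettl14 libraries were the higher ones, at a log2 fold change of 0.20 (SE 0.31) that was smaller than its error.

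The promoters of the set were searched for the letters that these factors are known to bind, in windows from 250 bases before to 50 bases after the RefSeq transcript start (GRCm38.p6), which matched 35 of the 39 genes. *Ctsb*, *Becn1*, *Atg16l1* and *Map1lc3a* had no entry. The E-box CACGTG was in 11 of 35 promoters (31.4%), beside 8.09% of the promoters of 27025 genes. The longer TCACGTGA, which contains the E-box, was in 4 (11.4%), beside 1.12% of all. Each motif is its own reverse complement, so a match counts for both strands. *Lamp1* held 4 copies of CACGTG, starting 61, 45, 28 and 15 bases before its transcript start. The windows of 30 bases below show the first of these, since *Lamp1* had the largest difference of the set, and 1 copy for each gene with TCACGTGA. Capitals mark the motif, and each is read 5′ to 3′ on the strand of its gene. That of *Lamp1* is chr8:13159088-13159117 on the plus strand, upstream of the gene body annotated from 13159161. The windows of *Ctsa* (chr2:164833749-164833778, plus strand), *Ctsd* (chr7:142387908-142387937, minus strand), *Mcoln1* (chr8:3500462-3500491, plus strand) and *Gla* (chrX:134601182-134601211, minus strand) hold motifs that start 13, 99, 46 and 195 bases before the RefSeq start. That of *Gla* is also upstream of its annotated gene body, whereas those of *Ctsa*, *Ctsd* and *Mcoln1* lie within theirs.
Lamp1: agggcaagatatCACGTGgtccagcgccca
Ctsa: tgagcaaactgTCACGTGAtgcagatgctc
Ctsd: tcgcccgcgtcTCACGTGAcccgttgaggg
Mcoln1: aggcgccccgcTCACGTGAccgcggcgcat
Gla: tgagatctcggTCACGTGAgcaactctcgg
The median log2 fold change was −0.11 for the 11 genes with CACGTG and −0.06 for the 24 without, and 8 of the former and 18 of the latter were below 0. Of the 4 genes with TCACGTGA, *Ctsa* and *Mcoln1* were below 0 and *Ctsd* and *Gla* above. A match describes letters only, and binding was not measured.

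Among the 5 genes of lysosomal membrane proteins, *Lamp1* was lower and *Lamp2* higher in both shMettl14 libraries, so that their ratio differed between the hairpins. *Lamp1* (ENSMUSG00000031447, chr8:13159161-13175338, plus strand, GRCm38) had 137467 and 107314 counts in shCTR A and B and 84627 and 79004 in shMettl14 A and B. The normalized level was 1102 ± 153 CPM (SD, n = 2) with shCTR and 660 ± 74.4 (SD, n = 2) with shMettl14, and every shMettl14 library was below every shCTR library. The log2 fold change was −0.74 (SE 0.21, 95% confidence interval −1.29 to −0.19), with ratios of −0.76 in A and −0.71 in B. This was the 1 member with an unadjusted p under 0.05 in edgeR's quasi-likelihood test (unadjusted p = 0.0179, adjusted p = 1). The value kept its sign when any 1 library was left out. In those fits 1 group held a single library, so no p-value is given. Of the *Lamp1* exons, 9.31% overlap those of *Grtp1* on the other strand, which had 122 to 184 counts in these libraries.

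*Lamp2* encodes the companion glycoprotein, which also takes part in chaperone-mediated autophagy and in fusion with autophagosomes. It had 38947 and 34221 counts in shCTR A and B and 47791 and 47487 in shMettl14 A and B, and both shMettl14 libraries were above both shCTR libraries. The log2 fold change was 0.22 (SE 0.19, unadjusted p = 0.3, adjusted p = 1, edgeR). The count of *Lamp1* divided by that of *Lamp2* was 3.53 and 3.14 in shCTR A and B and 1.77 and 1.66 in shMettl14 A and B. This ratio within a library does not depend on the scaling, and it was lower in both shMettl14 libraries. It was noticed after the values had been seen and was not tested.

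*Scarb2* encodes LIMP-2, the receptor that carries glucocerebrosidase to the lysosome. It had 13442 and 12790 counts in shCTR A and B and 9529 and 12052 in shMettl14 A and B, which is 118 ± 0.0503 CPM against 86.5 ± 8.78 (SD, n = 2 each). The shMettl14 libraries were both lower, with a log2 fold change of −0.45 (SE 0.19, 95% confidence interval −0.95 to 0.04, unadjusted p = 0.0654, adjusted p = 1, edgeR). *Mcoln1*, which encodes the calcium channel TRPML1, and *Cd63*, a tetraspanin of late endosomes, were lower within both letters with overlapping groups (*Cd63* not with library totals alone), at log2 fold changes of −0.21 (SE 0.23) and −0.26 (SE 0.36).

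**Figure D3:**
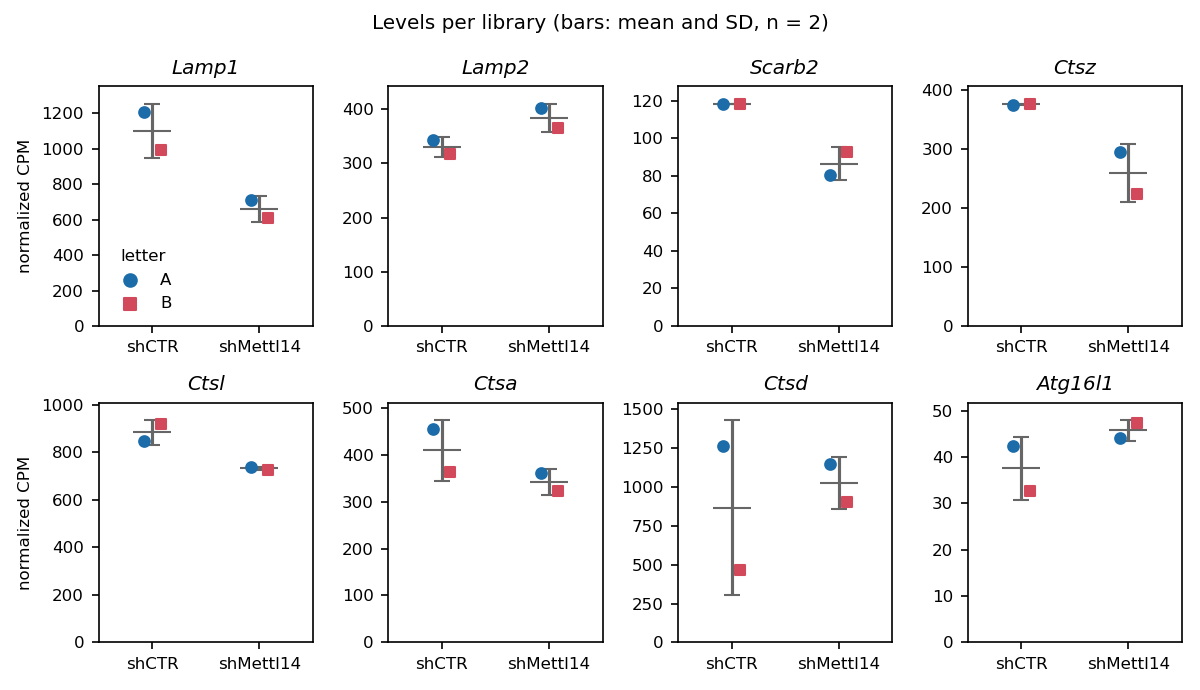
Normalized CPM of 8 genes in each library, by hairpin, with circles for letter A, squares for letter B, and bars for the mean and SD (n = 2). *Lamp1*, *Scarb2*, *Ctsz*, *Ctsl* and *Ctsa* are lower in both shMettl14 libraries, *Lamp2* and *Atg16l1* are higher, and *Ctsd* overlaps because shCTR B is at 467 CPM and shCTR A at 1264.

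Of the 7 protease genes, 4 (*Ctsa*, *Ctsb*, *Ctsl* and *Ctsz*) were lower within both letters, or 3 with library totals alone, where *Ctsb* no longer was. Their lowest unadjusted p in edgeR's test was 0.059. The largest difference was that of *Ctsz*, the gene of the carboxypeptidase cathepsin Z. It had 42574 and 40656 counts in shCTR A and B and 34966 and 29137 in shMettl14 A and B, or 376 ± 1.12 CPM against 259 ± 49.8 (SD, n = 2 each). The groups did not overlap, and the log2 fold change was −0.54 (SE 0.22, 95% confidence interval −1.10 to 0.03, unadjusted p = 0.059, adjusted p = 1, edgeR), with ratios of −0.35 in A and −0.75 in B.

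*Ctsl*, the gene of the cysteine protease cathepsin L, had 96196 and 99269 counts in shCTR A and B and 87564 and 94560 in shMettl14 A and B. After normalization both shMettl14 libraries were lower, at 732 ± 7.34 CPM against 883 ± 51.0 (SD, n = 2 each). *Ctsa*, whose product protects neuraminidase and beta-galactosidase in a complex, had 51630 and 39278 counts in shCTR A and B and 42874 and 42001 in shMettl14 A and B. Its normalized groups were barely apart, since shMettl14 A was at 361 CPM and shCTR B at 364. The log2 fold changes were −0.27 (SE 0.18) for *Ctsl* and −0.26 (SE 0.21) for *Ctsa*. For *Ctsa*, 17.4% of exon bases overlap genes of the other strand (*Neurl2* and *Pltp*), and whether the counting used strand is not given in the sources used here.

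*Ctsb*, the gene of cathepsin B, had 119185 and 98545 counts in shCTR A and B and 110633 and 112116 in shMettl14 A and B, with overlapping groups and a log2 fold change of −0.13 (SE 0.19). *Ctsd* was the protease that varied most between libraries, with 143526 and 50453 counts in shCTR A and B and 135948 and 117735 in shMettl14 A and B. The library that stood apart was shCTR B, the low one. Its log2 ratio between hairpins was −0.14 in A and 0.95 in B, and the log2 fold change was 0.24 (SE 0.49). Without shCTR A the log2 fold change of *Ctsd* was 1.14, and without shCTR B it was −0.31. The shCTR group then held a single library, so no p-value is given. Of its exon bases, 34.4% overlap a gene model on the same strand (*Gm49369*) that the count table does not list. *Ctsk*, the collagen-cleaving cathepsin K, and *Tpp1*, a tripeptidyl peptidase, had log2 fold changes of −0.07 and −0.04 with opposite signs in A and B.

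The 10 genes of glycan and sulfate hydrolases differed little between the hairpins, with a median absolute log2 fold change of 0.0372. Their log2 fold changes lay between −0.16 and 0.03, all smaller than their standard errors, and 3 were lower and 1 higher within both letters, where library totals alone left 0 of the 3 lower. *Glb1*, which encodes lysosomal beta-galactosidase, had 9514 and 9303 counts in shCTR A and B and 9549 and 10395 in shMettl14 A and B. After normalization the groups were narrowly apart, at 85.0 ± 1.67 CPM with shCTR and 80.2 ± 0.349 with shMettl14 (SD, n = 2 each), a log2 fold change of −0.08 (SE 0.18), and with library totals alone its sign turned to 0.03. For *Naglu* (an N-acetylglucosaminidase of heparan sulfate breakdown) and *Hexa* (the alpha subunit of hexosaminidase), the log2 ratios of B to A (−1.11 and −0.87 for *Naglu*, −0.54 and −0.28 for *Hexa*, with shCTR and shMettl14) were larger in size than the log2 fold changes of −0.16 (SE 0.48) and −0.15 (SE 0.26). *Gla*, *Gusb*, *Ids*, *Idua*, *Man2b1*, *Neu1* and *Sgsh*, enzymes that remove single sugars or sulfates, had log2 fold changes of −0.09 to 0.03.

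The 3 genes of lipid breakdown were each lower within both letters, with log2 fold changes of −0.21 to −0.05, but with library totals alone only *Lipa* of the 3 was lower within both letters, and *Psap* was at 0.0546. *Lipa* encodes lysosomal acid lipase, which releases cholesterol from its esters. It had 11293 and 12004 counts in shCTR A and B and 10174 and 12587 in shMettl14 A and B. The normalized level was 105 ± 8.28 CPM with shCTR and 91.2 ± 7.85 with shMettl14 (SD, n = 2 each), and the groups did not overlap. The log2 fold change was −0.21 (SE 0.20). *Smpd1* (acid sphingomyelinase) was at −0.18 (SE 0.28) and *Psap* at −0.05 (SE 0.21), with overlapping groups.

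The 11 autophagy genes had a median log2 fold change of −0.05, with 5 above 0 and 6 below, and no unadjusted p under 0.05. *Uvrag*, whose product is a partner of Beclin 1 in a lipid kinase complex, had 8187 and 7390 counts in shCTR A and B and 8829 and 9486 in shMettl14 A and B. Both shMettl14 libraries were higher by a small margin, with a log2 fold change of 0.07 (SE 0.18). *Ulk1* (the kinase that initiates autophagy) and *Becn1* (Beclin 1) had opposite signs in A and B, at log2 fold changes of −0.08 and 0.06.

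In the group that attaches ATG8 proteins to lipid, *Atg16l1* and *Atg5*, whose products work in the same complex, lay in opposite directions, although *Atg5* was at 0.00463 with library totals alone. *Atg16l1* had 4817 and 3535 counts in shCTR A and B and 5252 and 6156 in shMettl14 A and B. It was higher in both shMettl14 libraries, with a log2 fold change of 0.29 (SE 0.22) made of a ratio of 0.06 in A and 0.53 in B. *Atg5* had 3039 and 3133 counts in shCTR A and B and 3174 and 3258 in shMettl14 A and B. Its normalized level in shMettl14 A, 26.7 CPM, was next to that in shCTR A, 26.8 CPM, and the log2 fold change was −0.11 (SE 0.20). *Atg7*, the activating enzyme of the conjugation system, and *Wipi1*, which binds the forming membrane, were at −0.05 and 0.06 with overlapping groups.

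Among ATG8 proteins and the cargo receptor, *Map1lc3b*, whose product LC3B is the usual marker of autophagosomes, had 36374 and 25684 counts in shCTR A and B and 29988 and 26764 in shMettl14 A and B. It was lower within both letters, the groups overlapped, and the log2 fold change was −0.28 (SE 0.24). *Map1lc3a*, the gene of LC3A, had 9330 and 2594 counts in shCTR A and B and 7237 and 3656 in shMettl14 A and B. Here the letters were apart and the hairpins were not, with a log2 fold change of −0.25 (SE 0.67). *Sqstm1* encodes p62, a receptor that brings ubiquitin-marked cargo to LC3 and is itself degraded by autophagy. It had 94228 and 61736 counts in shCTR A and B and 83979 and 75311 in shMettl14 A and B, with overlapping groups and a log2 fold change of −0.12 (SE 0.26). *Gabarapl1*, an ATG8 protein of the GABARAP branch, was at 0.07 (SE 0.20). Protein, lipidation and autophagic flux were not measured in these libraries.

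The letters, which are replicates and not conditions of the study, were apart for the 39 genes mostly in 1 direction. Both B libraries were below both A libraries for 21 genes (53.8%), beside 28.8% of all genes tested, and above them for 1 gene (*Ids*, the sulfatase of iduronate), beside 27.2% of all. Under the other scalings the first of these counts was 20 to 22. Of the 117 further pathway genes tested, described below, 48 were lower and 24 higher in both B libraries. Those lower in B were 13 of 29 further hydrolases and activators and 14 of 27 further membrane and sorting genes. They were also 15 of 36 further autophagy genes and 6 of 25 genes of mTORC1 and of TFEB regulation. Lower levels in B were thus not particular to the 39 genes. The median log2 ratio of B to A over the 39 genes was −0.21 in shCTR and −0.16 in shMettl14, where all genes tested had −0.0133 and −0.00492. *Map1lc3a* had log2 ratios of B to A of −1.77 with shCTR and −1.12 with shMettl14, and *Tfeb* of −1.42 and −1.06. These were the 2 genes whose libraries of letter B were lower by a log2 ratio of at least 1 with both hairpins. *Naglu* followed with −1.11 and −0.87, and *Cd63* with −0.82 and −0.58. *Ctsd* had −1.44 with shCTR and −0.34 with shMettl14.

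The letters differed in other respects too. The endothelial markers were higher in both B libraries for 7 of 8 genes, and the smooth muscle markers were lower in both B libraries for 4 of 8 and higher for 2 of 8. The part of these cell type markers in the letter difference, and that of the smooth muscle markers in the hairpin difference, was not tested.

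**Figure D4:**
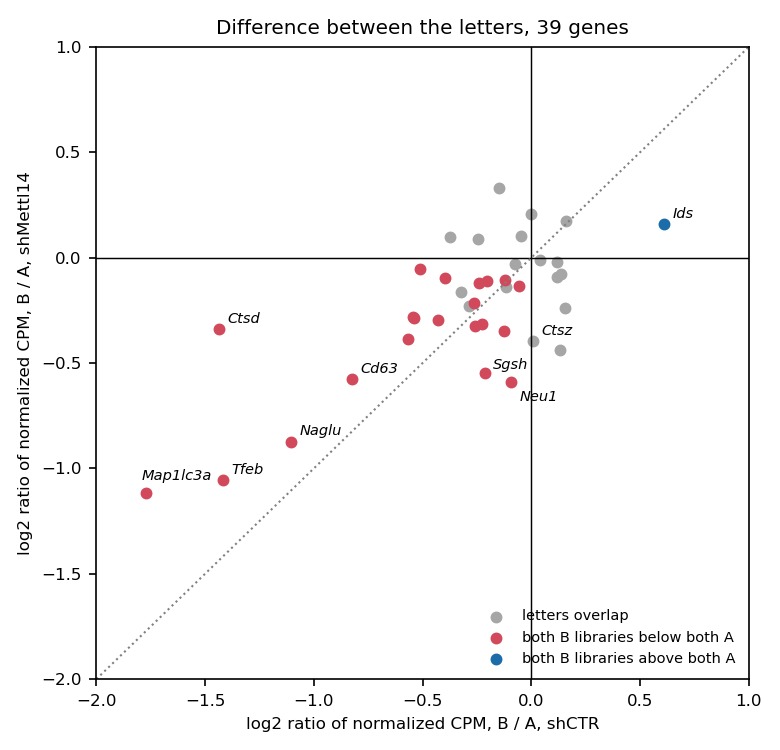
Log2 ratio of normalized CPM of B to A in shCTR (x axis) and in shMettl14 (y axis) for each of the 39 genes, with the dotted line marking equal ratios. Red marks the 21 genes with both B libraries below both A libraries, blue *Ids* with both above, and grey the rest. *Map1lc3a* lies at −1.77 and −1.12, *Tfeb* at −1.42 and −1.06, and *Ctsd* at −1.44 and −0.34.

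The other genes of these pathways, taken as 118 further lysosomal, autophagy and mTORC1 genes, split evenly. Of 117 tested, 58 were above 0 and 59 below, the median log2 fold change was −0.000915, and 0 had an adjusted p under 0.05. By list, the medians were −0.05 for 29 further hydrolases and activators, 0.01 for 27 further membrane and sorting genes, 0.00203 for 36 further autophagy genes and −0.05 for 25 genes of mTORC1 and of TFEB regulation. Of the 117 genes, 36 were lower and 31 higher within both letters, beside 27.7% and 30% of all genes tested. The groups were apart for 15 on the lower and 16 on the higher side, beside 13.3% and 14.7% of all.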

How the data were processed

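The authors made strand-specific poly-A libraries, sequenced both ends, aligned to GRCm38 by STAR and assigned reads to genes by featureCounts. What was deposited is a table of raw counts by gene symbol. The strand and multimapping settings of the counting are not given in the sources used here. Columns were matched to samples by their titles, and the groups shMettl14 and shCTR by the treatment label. Counts were normalized by TMM, filtered by filterByExpr and tested with edgeR 4.0.16 in R 4.3.3 (robust quasi-likelihood fit on all 4 libraries, no block, Benjamini-Hochberg over 18916 genes). A standard error is the size of the log2 fold change over the root of its F statistic. Within-letter ratios and ratios of B to A used log2 CPM with a prior count of 2, and overlap of groups was judged on normalized CPM. Totals were 114343653 to 124815868 counts per library. Gene places, exon lengths and overlaps came from GENCODE M21, promoters from RefSeq (GRCm38.p6), and figures from Python 3.11.15 with matplotlib 3.10.9.

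The members, the pathway and marker lists and the tests were chosen with earlier results of these data known. Counts in every library are given for *Tfeb*, *Tfe3*, *Mitf*, *Lamp1*, *Ctsb*, *Ctsd*, *Sqstm1* and *Map1lc3b* and for genes with an unadjusted p under 0.05, groups that did not overlap, ratios of at least 0.5 with 1 sign in both letters, opposite ratios of at least 0.3, or a log2 ratio of B to A of at least 1 in size with both hairpins, which made 19 of 39. The others are given by range. The further pathway genes are given as counts and medians, and a result that the naming rule covers among them is not reported here. Alternatives were a replicate block, DESeq2 1.42.0 (Wald test), RLE and upper-quartile scaling, no filter beyond 1 count, at least 10 counts in every library, each library left out, and library totals only, which were planned for the within-letter and overlap counts and added to the fit and the letter counts after seeing the data. The differential tests were also run on simulated data, and their outcome there is not reported here. Peaks of m6A were not analysed here.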

Additional observations from a re-analysis of the deposited data

How the results depend on the processing

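The count of 0 of the 39 genes with an adjusted p under 0.05 held under every alternative tried. With the letters as a replicate block, 9 of all genes tested and 0 of the 39 had an adjusted p under 0.05 (edgeR). In that fit 3 of the 39 had an unadjusted p under 0.05, beside 10.3% of all genes tested. They were *Lamp1* (unadjusted p = 0.00068), *Ctsz* (0.00791) and *Scarb2* (0.0144, edgeR with the block). *Ids* and *Tfeb* turned sign to 0.00321 and 0.0654. The lowest adjusted p of the 39 was then 0.169, for *Lamp1*. Libraries of the same letter deviated together from their group means (r = 0.578 across genes), but the letters are not stated to pair the cultures, and 2 pairs cannot settle it. DESeq2 called 4 of all genes tested. Library totals only put 9 of the 39 genes lower and 11 higher within both letters. In the fit, where library totals were added after seeing the data, they turned the median of the 39 genes to 0.0348 and the signs of *Ctsk* (0.0416), *Tpp1* (0.0673), *Glb1* (0.0275), *Ids* (0.09), *Idua* (0.0764), *Man2b1* (0.0199), *Neu1* (0.0671), *Psap* (0.0546), *Tfeb* (0.092), *Ulk1* (0.0348), *Atg5* (0.00463) and *Atg7* (0.0532). *Tfeb* also turned to 0.0141 with upper-quartile scaling and to 0.00699 with at least 10 counts in every library. Genes with both B libraries above both A libraries numbered 2 with upper-quartile scaling and with library totals. The cause of these changes was not tested.

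With each library left out in turn, so that 1 group had a single library assumed to vary like the other, the median of the 39 genes ranged from −0.185 to 0.0497, with values above 0 without shCTR A (0.0497) and without shMettl14 B (0.00671). Counts of genes by unadjusted p are not given for these fits, since 1 group then held a single library. The log2 fold change spanned 0 for 22 genes: *Ctsk* (−0.239 to 0.0893), *Hexa* (−0.397 to 0.154), *Idua* (−0.215 to 0.135), *Naglu* (−0.661 to 0.502), *Neu1* (−0.366 to 0.228), *Smpd1* (−0.436 to 0.138), *Psap* (−0.182 to 0.0879), *Cd63* (−0.615 to 0.217), *Tfeb* (−0.629 to 0.877), *Atg7* (−0.29 to 0.23), *Map1lc3a* (−0.919 to 0.895), *Sqstm1* (−0.371 to 0.174), *Ctsd* (−0.306 to 1.14), *Tpp1* (−0.167 to 0.0755), *Gla* (−0.0504 to 0.0795), *Gusb* (−0.0254 to 0.0745), *Ids* (−0.295 to 0.307), *Sgsh* (−0.27 to 0.28), *Becn1* (−0.13 to 0.277), *Wipi1* (−0.0594 to 0.191), *Gabarapl1* (−0.0547 to 0.198) and *Ulk1* (−0.309 to 0.13). *Lamp1* stayed between −0.878 and −0.586. No alternative with reduced depth was run.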
